A study of Homo sapiens with 3 samples.

Results

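The regions listed for ETS2 and for ZMYND11 were compared in ETS1-knockout DU145 cells. The ETS2 list held 1020 regions and the ZMYND11 list 15676, together 16696 of the 17232 regions of the study, and all of them were used. DU145 is an established line from a prostate adenocarcinoma that had spread to the brain. Chromatin immunoprecipitation with sequencing (ChIP-seq), a way to find the DNA that a protein is attached to, was done once for each protein in cells labelled as ETS1 knockout, and once for ZMYND11 in parental cells. Both lists compared here thus share the loss of ETS1. How the knockout was made, whether the cells were 1 clone, and the growth conditions at harvest beyond the common medium are not stated in the labels. No group had a replicate, so the differences below have no replicate error, and no test was made. The lists hold positions only, which means that they cannot check the knockout.

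ETS2 is a transcription factor of the ETS family, whose members read a GGAA core through a shared DNA-binding domain, and it is activated by Ras and ERK signalling. ETS1 is its closest relative. ZMYND11, also called BS69, is a chromatin reader and co-repressor that recognises histone H3.3 trimethylated at lysine 36, a mark laid down along the bodies of transcribed genes, and it has been linked to transcript elongation and splicing. The title of the study places ZMYND11 between the opposing roles of ETS1 and ETS2, which makes the sites that ETS2 and ZMYND11 hold in the same cells the question of this comparison.

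Each region is identified by its hg19 position and by its place, the line it takes in the deposited list. The labels do not say how the lines were ordered. Genes were assigned from hg19 loci known for 407 genes. A region was given a gene where its midpoint lay inside the gene or within 1 kb of it, and was said to lie at a start or an end where it lay within 1 kb of that point on either side. Regions up to 5 kb outside a gene are described as beyond its end or before its start. The table of loci was filled while the regions were being read, so a region left unnamed here may still lie at a gene.

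The 2 lists opened at the same loci. Of the 1020 ETS2 regions, 582 overlapped a ZMYND11 region by at least 1 bp, a share of 57.1% (95% Wilson interval 54.0 to 60.1%). Seen from the other side, 582 of 15676 ZMYND11 regions met one of ETS2, or 3.71% (3.43 to 4.02%). Among the first 100 regions of each list the overlap was much higher, at 83.0% of ETS2 regions (74.5 to 89.1%) and 76.0% of ZMYND11 regions (66.8 to 83.3%). The intervals cover counting error only and treat neighbouring regions as independent.

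Most early regions without an overlap had a counterpart close by. Of the 17 among the first 100 ETS2 regions, 8 had the nearest ZMYND11 midpoint at up to 1 kb, 3 had one at 1 to 2 kb, 4 at 2 to 10 kb, and 2 had none within 10 kb. Of the 24 among the first 100 ZMYND11 regions the corresponding numbers were 17, 4, 1 and 2. At NEAT1 the regions stood at ETS2 place 26 and ZMYND11 place 54 with midpoints 629 bp apart. At RPL13, a ribosomal protein gene, they stood at 44 and 28, 697 bp apart, and at the mitochondrial protease gene LONP1 at 42 and 47, 1626 bp apart. Ends of ACP4 (15 and 19, 631 bp apart), NFE2L3 (45 and 46, 630 bp) and LZTR1 (59 and 15, 565 bp) likewise stood early in both lists without overlapping. With midpoints within 10 kb taken as the same locus, 982 of 1020 ETS2 regions (96.3%) and 1731 of 15676 ZMYND11 regions (11.0%) had a counterpart. Within the first 100 the share was 98.0% for both lists. The ZMYND11 list was 15.4 times as long as the ETS2 list, which bears on each of these shares. Where several regions lay within 10 kb, the earliest place was taken here and below. That region may lie at another part of the gene or at another gene. The ETS2 region at place 172, inside MALAT1, thus has its counterpart at ZMYND11 place 13, while the nearest ZMYND11 region stood at 13231.

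**Figure D1:**
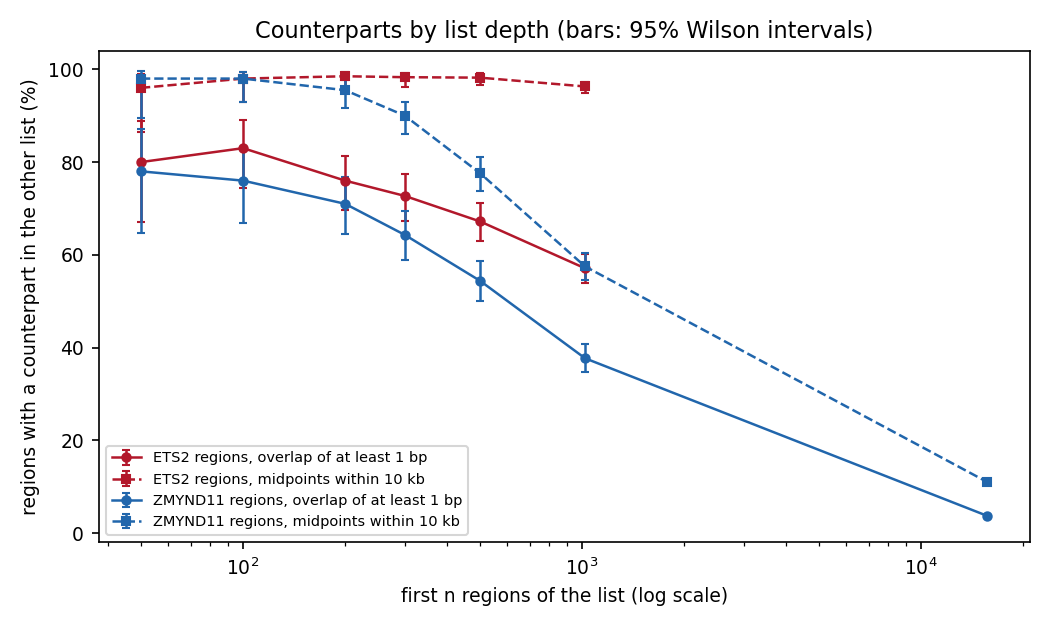
Share of regions with a counterpart in the other list (percent, vertical axis) against the number of regions taken from the top of the list (log scale), for ETS2 (red) and ZMYND11 (blue), by overlap (solid) and by midpoints within 10 kb (dashed), with 95% Wilson intervals. The overlap falls from 83.0% of the first 100 to 57.1% of all ETS2 regions, and from 76.0% of the first 100 to 3.71% of all ZMYND11 regions.

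The region that opened the ZMYND11 list lay at RNU2-2, a gene for the U2 spliceosomal RNA (chromosome 11, 62608870 to 62609370). The same gene stood at place 2 of the ETS2 list, with midpoints 2 bp apart. Place 3 of both lists was a region beyond the ends of MIR21, an oncogenic microRNA, and VMP1, the autophagy gene that hosts it (chromosome 17, 57920783 to 57921284 for ETS2 and 57920396 to 57920897 for ZMYND11). The end of FOSL1, which encodes the AP-1 subunit FRA1, met the gene CCDC85B at place 5 of the ETS2 and place 7 of the ZMYND11 list (chromosome 11, 65658735 to 65659234 and 65658840 to 65659341). The end of ARHGDIA stood at places 10 and 8, and that of ZNF79 at 8 and 6.

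Structural RNA genes were met by 3 of the first 20 regions of each list. MALAT1, an abundant nuclear long RNA, had regions at places 6 (ETS2) and 13 (ZMYND11). The U3 gene SNORD3A stood at places 17 and 30, the U8 gene SNORD118 at 38 and 9, the U5 gene RNU5A-1 at 51 and 14, and the U4 gene RNU4-1 at 36 and 21. Regions in chromosome 1, 148241409 to 148241910 and 149223791 to 149224292 for ETS2, stood at places 11 and 4 and had their ZMYND11 counterparts at places 4 and 2, with no gene assigned.

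Protein-coding starts in the shared opening were SCFD1, a vesicle-trafficking gene, at places 16 and 5, and MRPL53, a mitochondrial ribosomal protein gene, at places 18 and 11. A region at the start of PRCC and HDGF stood at places 13 and 36, and one at the end of HDGF, a growth factor gene, at 43 and 12. The first 20 ETS2 regions also held the starts of CCDC90B (place 58 of the ZMYND11 list), of the kinase gene GSK3A (96), of the splicing factor gene PRPF31 with TFPT (118) and of ZNF140 (283). The first 20 ZMYND11 regions held the ends of the chaperone gene HSP90AB1 and of SLC35B2 (place 70 of the ETS2 list), and the start of the RNA-export gene THOC6 with HCFC1R1 (25). The first region of the ETS2 list (chromosome 2, 33141255 to 33141740), to which no gene was assigned, stood only at place 111 of the ZMYND11 list and overlapped place 1 of the parental ZMYND11 list.

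Places remained related further down. The median ZMYND11 place of the earliest counterpart within 10 kb was 71.5 for ETS2 places 1 to 100, 158 for places 101 to 200, 371 for 201 to 400, 662 for 401 to 700 and 955 for 701 to 1020. Across the 582 overlapping ETS2 regions, Spearman's rank correlation between the places was 0.63. The value is across regions of single libraries from the same cells, and regions are not independent replicates. The scatter within each stretch was wide, with quartiles of 201.5 and 902 for ETS2 places 201 to 400.

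A counterpart was called late in the ZMYND11 list beyond place 1020, the length of the ETS2 list, and late in the ETS2 list beyond place 510, its midpoint. By overlap, 78 of the first 100 ETS2 regions had an early counterpart, 5 a late one and 17 none. For the first 100 ZMYND11 regions the numbers were 74, 2 and 24. By loci within 10 kb, 93, 5 and 2 of the ETS2 regions were early, late and absent, against 95, 3 and 2 of the ZMYND11 regions. The limits differ between the lists, so the late counts of one list should not be set against those of the other. Both limits count lines and are not equal shares of the 2 lists, so a late place need not be a later share.

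The 5 regions that stood among the first 100 of ETS2 but late for ZMYND11 lay at the starts of BOD1, PAFAH2 and CEP290 with TMTC3, and inside the zinc finger genes ZNF84 and ZNF180. BOD1, which is needed for chromosome bi-orientation in mitosis, stood at place 58 of the ETS2 list and place 2848 of the ZMYND11 list (chromosome 5, 173043554 to 173044050). As shares of lists of unequal length these places are 5.69% and 18.2%. The start shared by CEP290, a centrosome and cilium protein gene, and its divergent neighbour TMTC3 stood at 83 and 2743 (chromosome 12, 88535717 to 88536214). PAFAH2, which encodes an enzyme that hydrolyses platelet-activating factor, stood at 66 and 1359 (chromosome 1, 26324405 to 26324906). ZNF180 stood at 74 and 2039, and ZNF84 at 24 and 1096. These 5 loci were late in the ZMYND11 list, not missing from it. By share of list length they also stood later for ZMYND11, least so PAFAH2 at 6.47% and 8.67%. Within the limit lay the start of the JNK scaffold gene MAPK8IP3, at 90 and 675, and that of ENY2 and NUDCD1, at 100 and 553. By share these 2 stood earlier for ZMYND11, at 8.82% and 4.31%, and at 9.8% and 3.53%. The 2 regions of the first 100 with no counterpart within 10 kb were both mitochondrial (places 9 and 23), and the ZMYND11 list held 0 mitochondrial regions.

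Among the first 100 ZMYND11 regions, 5 had a late or absent ETS2 locus by this measure, and 4 of them had a gene. The end of ID1, an inhibitor of helix-loop-helix factors, stood at place 56 of the ZMYND11 list and 942 of the ETS2 list (chromosome 20, 30194558 to 30195056), or 0.357% and 92.4% of the way down the lists. A region inside ACTG1, the gene of gamma-actin, stood at 81, and the nearest ETS2 region, at its start, stood at 761. A region in SNHG7 and DIPK1B at place 43 (chromosome 9, 139617026 to 139617524) and one beyond the end of LPCAT1, a phospholipid-remodelling enzyme gene, at place 65 (chromosome 5, 1458010 to 1458511) had no ETS2 region within 10 kb. Of overlapping regions with an ETS2 place within the limit, the end of MIDN stood at ZMYND11 place 60 and ETS2 place 360, and a region beyond the end of ZFAS1, a host of small nucleolar RNAs, at 51 and 262.

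**Figure D2:**
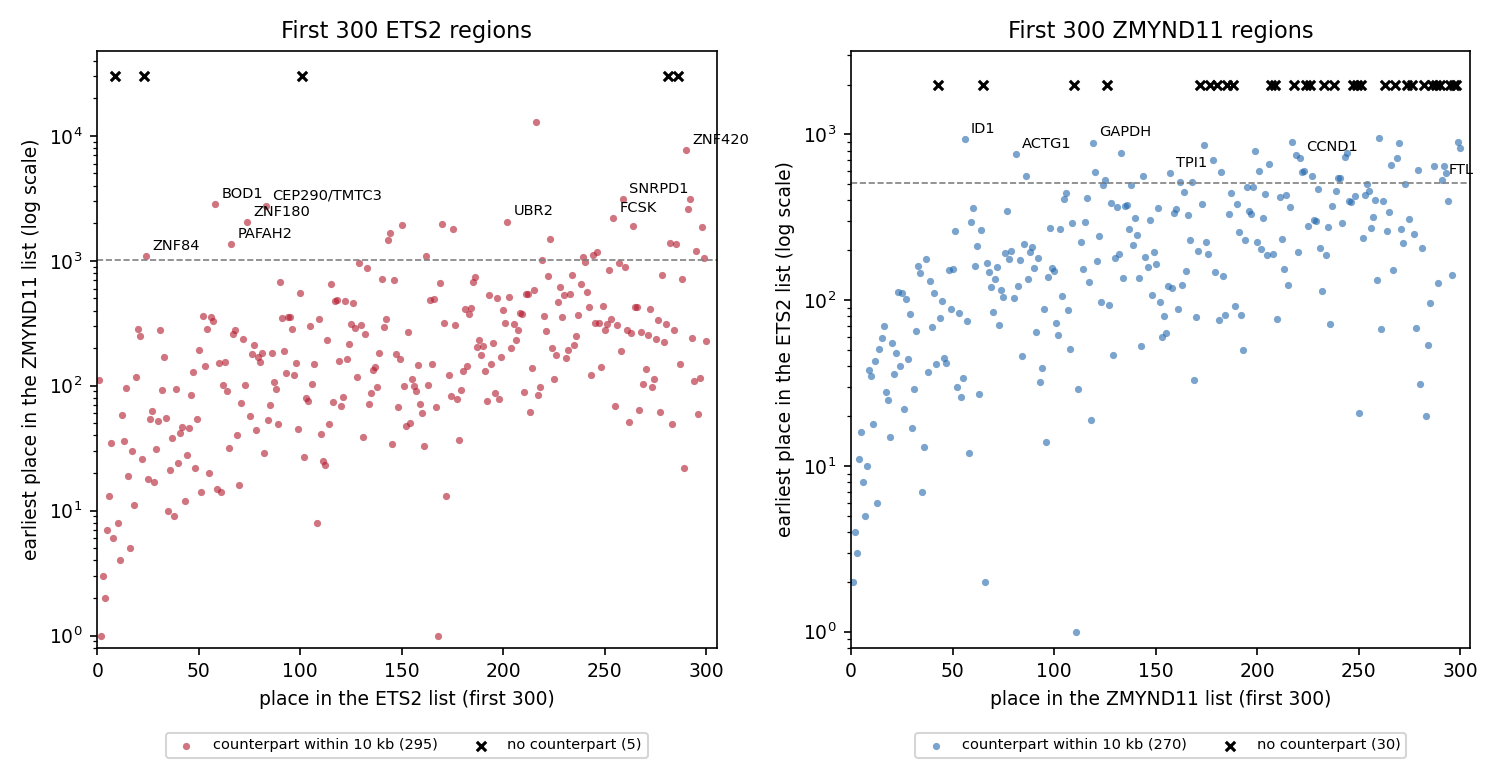
Place of the earliest counterpart within 10 kb in the other list (log scale, vertical axis) for the first 300 ETS2 regions (left, 295 with a counterpart) and the first 300 ZMYND11 regions (right, 270 with one), 1 point a region. Crosses at the top mark the 5 and 30 regions with no counterpart, dashed lines the limits for late (1020 and 510), and named points lie above them, such as BOD1 at 58 and 2848 and ID1 at 56 and 942.

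Extending the comparison to the first 300 regions, a depth chosen after shallower and deeper ones had been seen, gave 33 ETS2 regions whose ZMYND11 locus was late (28) or absent (5), and 68 ZMYND11 regions whose ETS2 locus was late (38) or absent (30). The 2 sets, which rest on the unlike limits given above, differed in where they lay along genes. As a share of list length, most of the 28 late ETS2 regions did not stand later for ZMYND11. The same held for most of the 15 at starts, so the sets are defined by line number only. Of the 33 ETS2 regions, 15 lay within 1 kb of a gene start and 1 within 1 kb of an end, 2 more lay up to 5 kb beyond an end, and 5 lay inside a gene. Of the 68 ZMYND11 regions, 3 lay within 1 kb of a start and 24 within 1 kb of an end, 15 more lay up to 5 kb beyond an end, and 7 lay inside a gene. No gene was assigned to 10 of the 33 and 16 of the 68. With the windows widened to 5 kb on either side of both points, starts and ends numbered 15 and 8 in the ETS2 set and 22 and 30 in the ZMYND11 set, so that the contrast was much smaller. In a gene shorter than the wide window a region counts at the start.

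In the whole first 100 the lists lay closer together. Starts and ends were met by 36 and 34 ETS2 regions and by 21 and 33 ZMYND11 regions, and structural RNA genes by 8 and 9. Of the regions of the first 100 that were late or absent by overlap, 5 of 22 lay at a start and 7 at an end for ETS2, against 0 and 9 of 26 for ZMYND11.

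**Figure D3:**
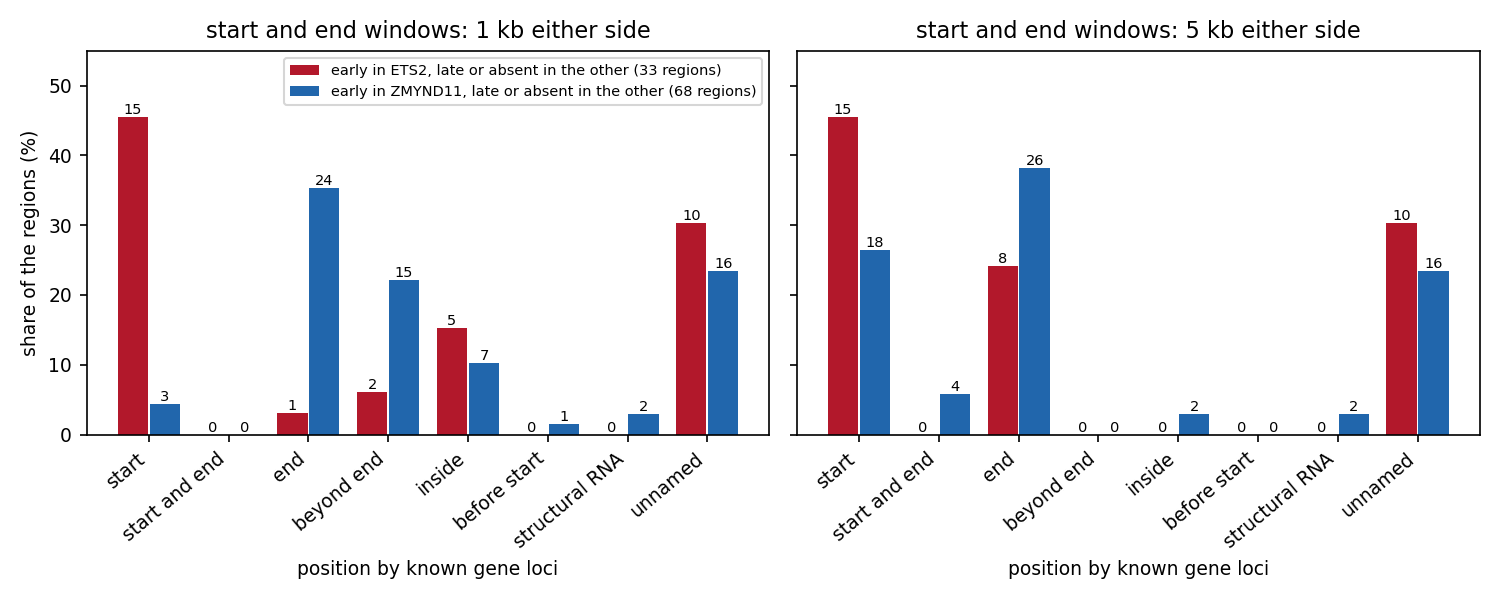
Position along genes of the regions that stood in the first 300 of one list and late or absent in the other (percent of the 33 ETS2 and 68 ZMYND11 regions, numbers above the bars), with windows of 1 kb (left) and 5 kb (right) on either side of starts and ends. At 1 kb, 15 ETS2 regions lie at starts and 24 ZMYND11 regions at ends, and at 5 kb 18 ZMYND11 regions lie at a start alone and 4 at a start and an end. Late was set by unlike limits, beyond place 1020 of the ZMYND11 list and beyond place 510 of the ETS2 list.

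Genes from the ETS2 set are given as examples chosen after their values were seen. The ubiquitin ligase gene UBR2 stood at place 202 of the ETS2 list and 2061 of the ZMYND11 list, and the core splicing protein gene SNRPD1 at 259 and 3101. The growth-inhibitor family gene ING4, a reader of methylated histone H3, stood at 244 and 1103. The fucose kinase gene FCSK stood at 254 and 2198, and the sialyltransferase gene ST3GAL2, its neighbour on chromosome 16, at 143 and 1475. These places are line numbers in lists of 1020 and 15676 regions. As shares of list length, UBR2, SNRPD1, ING4, FCSK and ST3GAL2 all stood earlier in the ZMYND11 list than in the ETS2 list. Zinc finger genes of the ZNF family accounted for 5 of the 33 and 0 of the 68 regions, and for 6 of the first 100 ETS2 and 2 of the first 100 ZMYND11 regions. These counts are minimums, since 4 ZNF loci were dropped from the table of genes. Loci were added while differing regions were read, and the share over all first 300 regions of either list is not given. The limits for late also differ between the lists, so the counts are not read as a trait of ETS2. Apart from ZNF84 and ZNF180, the 5 were ZNF420 (290 and 7707), ZNF721 (292 and 3113) and ZNF571 (281, no ZMYND11 midpoint closer than 29344 bp). ETS2 midpoints lay 32 bp from the ZMYND11 midpoint at BOD1, 102 bp at PAFAH2 and 16 bp at UBR2.

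Genes from the ZMYND11 set were likewise chosen after their values were seen, and the genes below are not a tally of the set by function. Among glycolytic enzyme genes, GAPDH stood at place 119 of the ZMYND11 list and 893 of the ETS2 list with midpoints 4 bp apart (chromosome 12, 6647849 to 6648348). TPI1 stood at 157 and 583, and ENO1 (110) and PGAM1 (218) had no ETS2 region within 10 kb. Genes of other metabolic enzymes were FASN, for fatty acid synthesis (240 and 548), and TALDO1, of the pentose phosphate pathway (270 and 892).

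Ends of ribosomal protein genes in this set were RPL36AL (206 and 664), RPL18 (244 and 775) and RPL22L1 (207, absent), with RPSA (219 and 755) and RPL32 (282, absent) just beyond the end. CCND1, which encodes cyclin D1, stood at its end at 221 and 725 (chromosome 11, 69469164 to 69469662). The calcium-binding protein gene S100A6 stood at 226 and was absent, as was a region beyond the end of VEGFA, the angiogenic factor gene, at 298. RNA components of ribonucleases, RMRP (251) and RPPH1 (286), had no ETS2 region within 10 kb. Several other structural RNA genes were early in both lists, but only 12 of 20 had an ETS2 region within 5 kb. RN7SK and TERC were among the others without one.

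Members of 9 gene lists were then looked up in the whole of both lists. Of 143 genes, 139 had a locus that could be used. An ETS2 region lay in or within 1 kb of 38 of them (27.3%) and a ZMYND11 region of 99 (71.2%). For 35 genes both were found, for 64 ZMYND11 alone and for 3 ETS2 alone. The 3 were RN7SL1 (ETS2 place 459), CFL1 (181) and RPS16 (518), and each had a ZMYND11 region within 5 kb. With the much longer ZMYND11 list, presence in it says little, and places are given for this reason. The share over all genes of the genome was not computed here, so the count of each list can be set only beside the 27.3% and 71.2% over all 139 genes.

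**Figure D4:**
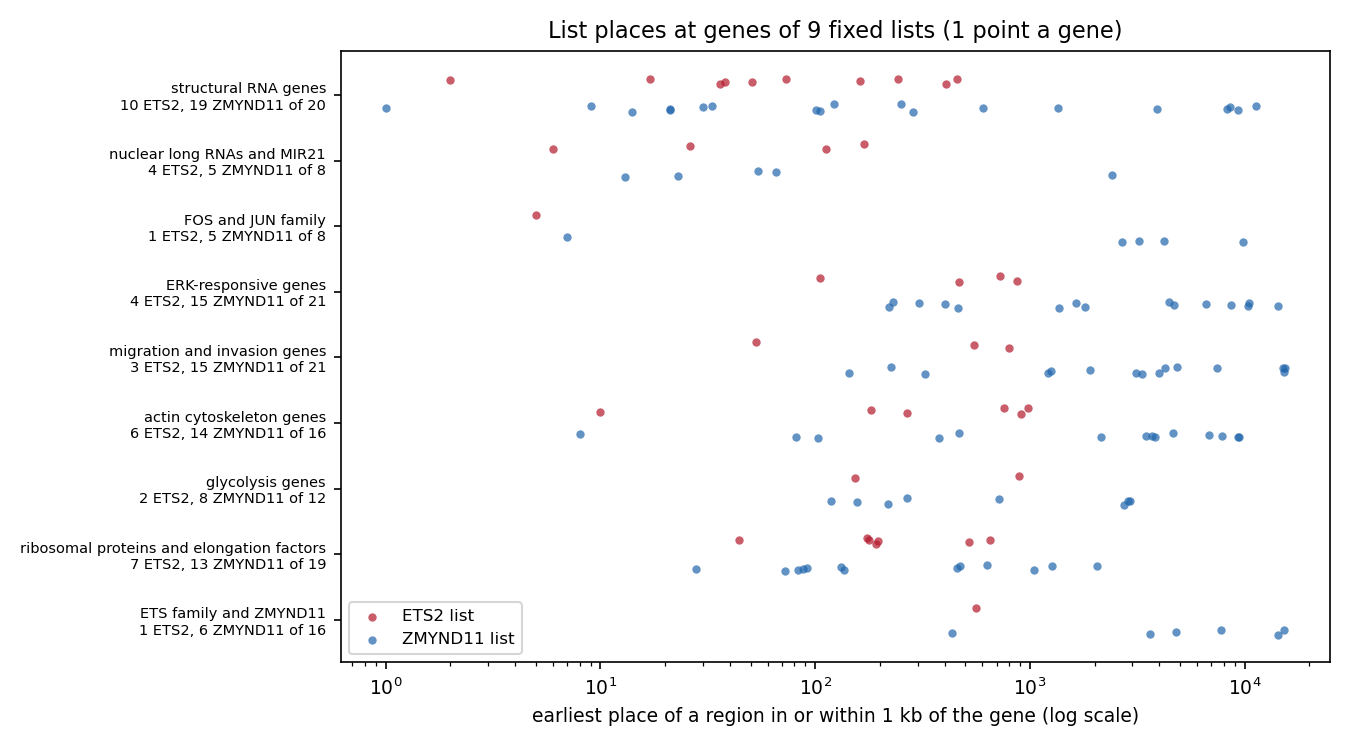
Earliest place (log scale) of a region in or within 1 kb of each gene of the 9 lists, ETS2 in red and ZMYND11 in blue, 1 point a gene, with the number of genes that had a region out of those located. Several structural RNA genes stood early in both lists, with RNU2-2 at places 2 and 1, while 5 of 16 actin genes had a region in both lists.

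Structural RNA genes, which encode parts of the splicing, processing and signal recognition machinery, had an ETS2 region in 10 and a ZMYND11 region in 19 of 20 cases. RNU12, of the minor spliceosome, stood at places 161 and 33, RNU11, of the same spliceosome, at 73 and 101, and the U1 gene RNU1-1 at 243 and 122. RN7SK, whose RNA holds the elongation factor P-TEFb inactive, had a ZMYND11 region only, at place 8559.

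NEAT1 and MALAT1 carried more ETS2 than ZMYND11 regions within 5 kb, although the ETS2 list was the shorter. The same held for SNHG1, PFN1, ARHGDIA and KRT7, so it was not particular to NEAT1 and MALAT1. Along NEAT1, the scaffold of paraspeckles, 6 ETS2 regions lay at places 26, 49, 586, 600, 639 and 781. In the same window of 5 kb around the gene, 2 ZMYND11 regions stood at places 54 and 822. The ETS2 region at place 49 sat at the NEAT1 start (chromosome 11, 65190358 to 65190859), and the parental ZMYND11 list held a region there at place 145. At MALAT1, 4 ETS2 regions lay inside the gene or at its end, at places 6, 172, 853 and 884. The ZMYND11 list there held a region beyond the end at place 13 and others upstream at places 10267 and 13231. GAS5, which hosts small nucleolar RNAs, stood at 112 and 23.

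Genes that respond to ERK, the kinase downstream of Ras, had an ETS2 region in 4 and a ZMYND11 region in 15 of 21 cases. IER3, an immediate early gene, stood at places 105 and 303, in each list at its end. KLF6, a zinc finger factor gene, stood at 466 and 230. EPHA2, an ephrin receptor gene, had no ETS2 region and 8 ZMYND11 regions within 5 kb, and stood at place 6 of the parental ZMYND11 list. Of the FOS and JUN family, FOSL1 had a region in both lists, and 4 others, among them JUN (4219) and JUNB (3226), in the ZMYND11 list alone.

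Migration and invasion genes numbered 3 with an ETS2 and 15 with a ZMYND11 region of 21. CCN1, a matricellular protein gene, stood at 53 and 143 with the region at its end (chromosome 1, 86049642 to 86050124 for ETS2). PLAU, which encodes urokinase, stood at 549 and 1213, and VIM, for vimentin, had a ZMYND11 region only, at 326. Actin cytoskeleton genes numbered 6 and 14 of 16, glycolysis genes 2 and 8 of 12, and ribosomal protein and elongation factor genes 7 and 13 of 19. Over all 139 genes the shares were 27.3% and 71.2%, and several of these counts were near them. The counts are thus not read as particular to a list. PKM, for pyruvate kinase, stood at 153 for ETS2 and 267 for ZMYND11, and GAPDH at 893 and 119. As shares of list length, both genes stood later in the ETS2 list. The count of ribosomal protein and elongation factor genes moved to 17 and 19 of 19 with a distance of 5 kb.

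Of 16 ETS family genes with a locus, GABPA alone had a region within 1 kb in both lists (563 and 435, at its start). Within 5 kb ERF did too, at places 14 and 96, through the regions at the start of GSK3A that are described above. The gene of ETS2 itself had a ZMYND11 region at place 3629 and no ETS2 region. ETS1 had neither within 1 kb. Of the cell type markers, KRT7, an epithelial keratin, stood at places 131 and 39. Of 6 epithelial genes, 1 had an ETS2 region and 4 had a ZMYND11 region, while EPCAM and CDH1 had neither. Over the 139 genes of the lists the shares were 27.3% and 71.2%, so the epithelial counts are not read as a check of the label. None of the 5 luminal prostate genes had a region in either list, and of genes of other cell types GFAP alone had one, at ZMYND11 place 9929. A listed region is not a measure of expression.

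The starts among the first 100 regions allowed a look at sequence. The RefSeq table of promoters (GRCh38.p14, 250 bases before to 50 after the start) held 35 of the 43 genes whose start lay at an ETS2 region and 25 of 26 for ZMYND11. The strict ETS motif CCGGAA, read on both strands, was in 13 of 35 (37.1%) and 9 of 25 (36.0%) promoters, against 4815 of all 27305 promoters (17.6%). The core GGAA, which CCGGAA contains, was in 97.1%, 96.0% and 95.5%, and so separates nothing at this length. The AP-1 motif TGANTCA was in 0 of 35, 2 of 25 and 7.76%. Many genes were counted for both lists, and the base composition of the promoters was not matched. Of 12 promoters at ETS2 starts of the first 300 with a late or absent ZMYND11 locus, 4 held CCGGAA (33.3%). A match is a description of letters and not a site.

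The promoters below are examples, with CCGGAA or its complement TTCCGG in capitals. They were chosen after their places were seen. None of them is among the 4 promoters with a late or absent ZMYND11 locus that held CCGGAA, so they do not show a difference between sets. The first 2 opened both lists at their starts, and the other 3 were early for ETS2 and late for ZMYND11.
SCFD1 promoter, GRCh38.p14 chr14:30622004-30622303, plus strand: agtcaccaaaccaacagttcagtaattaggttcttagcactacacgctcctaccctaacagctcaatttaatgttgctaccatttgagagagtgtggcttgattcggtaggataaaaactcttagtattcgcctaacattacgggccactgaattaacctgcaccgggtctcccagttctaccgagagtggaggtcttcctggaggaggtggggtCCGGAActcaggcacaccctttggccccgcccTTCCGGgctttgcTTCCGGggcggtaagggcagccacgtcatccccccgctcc
MRPL53 promoter, GRCh38.p14 chr2:74472631-74472930, minus strand: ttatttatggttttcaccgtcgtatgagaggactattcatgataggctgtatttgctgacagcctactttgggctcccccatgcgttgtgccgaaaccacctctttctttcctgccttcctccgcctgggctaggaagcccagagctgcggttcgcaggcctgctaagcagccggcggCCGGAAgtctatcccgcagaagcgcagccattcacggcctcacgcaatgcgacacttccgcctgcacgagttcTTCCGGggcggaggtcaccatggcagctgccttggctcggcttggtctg
BOD1 promoter, GRCh38.p14 chr5:173616601-173616900, minus strand: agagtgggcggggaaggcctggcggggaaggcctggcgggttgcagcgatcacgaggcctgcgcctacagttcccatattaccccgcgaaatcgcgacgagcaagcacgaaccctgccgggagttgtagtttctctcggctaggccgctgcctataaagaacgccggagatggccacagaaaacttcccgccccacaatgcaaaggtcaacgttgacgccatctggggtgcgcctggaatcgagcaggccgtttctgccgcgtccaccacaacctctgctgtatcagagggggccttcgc
PAFAH2 promoter, GRCh38.p14 chr1:25998014-25998313, minus strand: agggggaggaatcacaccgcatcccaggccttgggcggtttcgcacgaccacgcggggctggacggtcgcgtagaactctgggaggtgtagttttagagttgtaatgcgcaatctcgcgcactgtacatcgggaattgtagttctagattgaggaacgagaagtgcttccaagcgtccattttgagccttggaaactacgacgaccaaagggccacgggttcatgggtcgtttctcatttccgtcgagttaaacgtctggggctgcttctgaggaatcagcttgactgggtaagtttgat
CEP290 promoter, GRCh38.p14 chr12:88142039-88142338, minus strand: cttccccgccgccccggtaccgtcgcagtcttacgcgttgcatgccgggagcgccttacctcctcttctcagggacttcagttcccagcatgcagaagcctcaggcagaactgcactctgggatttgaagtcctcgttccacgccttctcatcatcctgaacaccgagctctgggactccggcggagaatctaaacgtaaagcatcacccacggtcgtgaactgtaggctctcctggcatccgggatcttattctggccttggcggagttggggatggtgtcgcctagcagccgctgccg
SCFD1, at places 16 and 5, held 3 copies of the motif, and MRPL53, at places 18 and 11, held 2. BOD1, PAFAH2 and CEP290 held 0. With 5 promoters this describes those genes alone. The 37.1% above is for all starts at the first 100 ETS2 regions, with BOD1, PAFAH2 and CEP290 among them. The 33.3% is for ETS2 starts of the first 300 with a late or absent ZMYND11 locus. A share for starts early in both lists is not given here.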

How the data were processed

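ChIP-seq region lists of 3 libraries, 1 per group, were used as deposited. The authors deposited 3 columns (chromosome, start, end) per list, with no header, score or count. Bowtie2 2.0.6 and hg19 were used, per the submitters' processing notes. Not given in the sources used here were the peak caller, threshold, control, depth, counting base of starts and meaning of the line order, so neither a precision per region nor a detection limit could be derived, and a difference in list length cannot be told apart from a difference in depth, precipitation or threshold. Groups came from the sample titles.

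Regions were compared by overlap of at least 1 bp. Alternatives were reciprocal overlap of 50%, midpoints within 1 kb, shorter lists and, added after the data were seen, midpoints within 10 kb, the first 300 regions and other position windows. No hg19 annotation or genome was used. Gene loci on hg19 were written from knowledge for 421 genes, in passes made while unnamed early and differing regions were being read. An end of a gene was used only if the gene's length (within 500 bp) or its spacing to another gene within 10 Mb (within 1000 bp) was the same in RefSeq GRCh38.p14. No coordinate was converted, 407 genes were kept and 14 dropped. A further locus was left out because it had been corrected with the same check. Not every shared region at places 101 to 300 was worked through, so positions are tallied only for the first 100 and for the differing sets.

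The members, gene lists and promoters were chosen with earlier results of these data known. Genes are named from the first 20 regions of each list, from up to 10 late and 10 absent regions of the first 100, from the 10 widest gaps of place, and from members of the lists. Not every gene of these groups is named. Genes named from places 101 to 300, and those 1 to 5 kb from a region, were added after their values were seen. Matching of regions was tested on simulated data. Python 3.11.15, numpy 2.4.6, pandas 2.3.3, scipy 1.17.1 and matplotlib 3.10.9 were used.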

Additional observations from a re-analysis of the deposited data

How the results depend on the processing

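The share of ETS2 regions with a ZMYND11 counterpart, 57.1% by overlap, was 41.6% with reciprocal overlap of 50%, 71.9% with midpoints within 1 kb and 37.7% with the ZMYND11 list taken to the length of the ETS2 list. The share of ZMYND11 regions, 3.71%, was 2.7%, 4.66% and, with the first 50% of both lists, 4.36%. Late or absent counterparts among the first 100 regions fell from 22.0% to 14.0% (midpoints within 1 kb) and 7.0% (within 10 kb) for ETS2, and from 26.0% to 10.0% and 5.0% for ZMYND11. The Spearman rank correlation of places was 0.52 within 10 kb. Genes of the lists with an ETS2 region numbered 58 within 5 kb and 20 at starts, and with a ZMYND11 region 52 at starts.

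Position counts depended on the window. With 5 kb on either side, the first 100 ZMYND11 regions gave 40 at starts and 51 at ends, the ETS2 set of the first 300 gave 8 at ends, and the ZMYND11 set gave 22 at starts. The first window tried, with starts at 1 kb and ends from 1 kb before to 5 kb beyond, was uneven and favoured ends. It gave 58 ends in the first 100 ZMYND11 regions, and 3 and 42 in the ETS2 and ZMYND11 sets. The strict ETS motif in place of the core took the share of promoters from 97.1% to 37.1%. Smaller moves were those of the first 100 ETS2 regions, from 36 starts to 49 and from 34 ends to 45 (5 kb) and 47 (uneven window), and of late or absent counterparts, to 29.5% and 35.0% with the first 200 regions. No paired analysis was possible because each group had 1 library.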

Other observations

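Genes of the 9 lists were also met by the parental ZMYND11 list of 536 regions, with a region in or within 1 kb of 22 of 139 genes. ACTB stood at place 2, ACTG1 at 3, GAPDH at 4, EPHA2 at 6, RPL8 at 8 and RPL3 at 12. Of 28 parental regions inside or within 5 kb of genes of the lists or of the cell type markers, 6 overlapped a knockout ZMYND11 region and 22 did not. The 28 include regions at the epithelial markers KRT7 and KRT18, none of which overlapped. The share over all 536 parental regions is not given here, so these counts are not a result about the genes. The 6 lay at SNORD3A, RNU1-1, EGR1, MCL1, FLNA and PFKP. Of the other 22, those at ACTB, ENO1, CCN1, KRT7 and GAPDH are described here, chosen after their values were seen. In the parental list the ACTB region lay inside the gene (chromosome 7, 5567950 to 5568449), and in the knockout ZMYND11 list the earliest one lay beyond its end (place 78, 5564997 to 5565498), as did the ETS2 region at place 177. ENO1 had a parental region inside the gene at place 37 and a knockout region beyond its end at place 110. CCN1 had a parental region at its start at place 14, and both knockout-cell lists had one at its end. Other genes differed. KRT7 had its parental region at the end (place 288) and its knockout ZMYND11 region inside the gene (place 39). GAPDH had the earliest region at its end in the parental list (place 4) and in the knockout ZMYND11 list (place 119). Positions over all 22 were not tallied. Each of these values comes from 1 library.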
